A study of Mus musculus with 4 samples.

Results

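The genes of the tricarboxylic acid (TCA) cycle and of pyruvate metabolism were followed in mouse ventricular muscle with and without Trpc6. The list holds 35 genes, chosen by symbol: the enzymes of the cycle, the pyruvate dehydrogenase complex with its kinases and phosphatases, the routes by which pyruvate enters the mitochondrion or the cycle, and the aminotransferases of the malate-aspartate shuttle. Of these, 34 had a probe whose symbol in the platform annotation matched, all 34 were kept as above background, and they are 34 of the 15955 genes tested. Each of the 34 was above background on all 4 arrays, so the filter on low values left no member out, and Mpc2, a subunit of the mitochondrial pyruvate carrier, is not analysed here.

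The study compared 2 wild-type samples with 2 samples of the genotype TRPC6 KO, a genetic deletion of a calcium-permeable cation channel. All were ventricle muscle, the mice were male and of strain 129SV, and the labels name no age, treatment or way in which the deletion was made. The question of the design is how the transcripts of the ventricle differ once the channel is lost. The labels do not say whether the samples of a group came from separate animals, so the spread behind each p-value is that of these samples and may be technical.

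Pyruvate made by glycolysis enters mitochondria through the pyruvate carrier and is turned into acetyl-CoA by the pyruvate dehydrogenase complex, which kinases switch off and phosphatases switch on. Citrate synthase joins acetyl-CoA to oxaloacetate, and the cycle then regenerates oxaloacetate while it feeds electrons to the respiratory chain. The heart draws most of its ATP from this oxidation, and the malate-aspartate shuttle carries reducing equivalents of the cytosol into its mitochondria.

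The quality of the arrays bears on all values. The 4 arrays, each with 1 sample in 1 colour, had median probe intensities of 95.5 to 106 units against blank spot medians of 78.4 to 87.5 units, and 76.3% to 83.2% of probes were above background. All 8 cardiomyocyte markers were kept, with mean log2 intensities of 13.76 to 13.83 per array, as markers of the labelled tissue. Summed intensities of the 4 measured erythroid markers were 1162 units on the first wild-type array and 3058 to 3374 units on the other 3. The atrial marker Myl4 read 219 units on the second wild-type array and 107 to 123 units on the other 3. Myl7, the other atrial marker measured, read 92 and 108 units in wild type and 94 and 100 units in the knockout. The fibroblast marker Dcn read 2838 and 3175 units in wild type and 2378 and 1766 units in the knockout. The macrophage marker C1qa read 340 and 322 units in wild type and 364 and 398 units in the knockout. After normalization 2 of 5 fibroblast and 3 of 5 macrophage markers were higher in the knockout, and the others lower. The part of all these markers in the results below was not tested. The Trpc6 probe stayed below the background limit on all 4 arrays and does not check the labels. In a tissue sample, fewer cells of a type and less RNA per cell cannot be told apart.

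Values are normalized log2 intensities, in the order first and second array of each group, and a fold change is the knockout mean minus the wild-type mean on the log2 scale, with its limma standard error (n = 2 arrays per group). Levels of different genes are not read as differences in their expression, since each probe has its own response. Where genes are called bright or dim, this describes the signal of the probe.

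None of the 34 genes passed the test over all genes (limma, Benjamini-Hochberg), where the smallest adjusted p among them was 0.727, and 0% of all genes tested passed. At an unadjusted p under 0.05 there were 2 members, Cs and Idh3a, both higher in the knockout, or 5.88% of members against 6.74% of all genes tested. In the higher direction the share over all genes was 3.67%, and in the lower direction, with 0 members, it was 3.08%. With an intensity trend and a robust prior, limma again called 0 members after adjustment and had 1, Cs, at an unadjusted p under 0.05, where 6.47% of all genes were. The groups did not overlap in 10 members, 29.4%, against 36.8% of all genes tested. These shares lie near or below the background and are no result about the list. There were 21 members higher and 13 lower, against 51.1% of all genes higher and 48.9% lower, and the median log2 fold change was 0.019, against 0.0017 over all genes. After scaling to a common median the split was 17 higher and 17 lower, so that no direction of the list held. Over all genes the split at an unadjusted p under 0.05 was 585 higher and 491 lower, and 397 and 676 after that scaling.

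The spread within a genotype was as large as the difference between genotypes for most of these genes. The gap between the 2 wild-type arrays exceeded the fold change in 27 of 34 members, and 29 had such a gap in at least 1 group. The remaining 5, whose difference was larger than the gap within both groups, were Cs, Idh3a, Idh3b, Mdh1 and Pdhb, all higher in the knockout. Such genes made up 23.9% of all genes tested. The median gap between the wild-type arrays was 0.13 over members and 0.061 over all genes. Of the 34 members, 32 were brighter than the median gene, and the offset of the background correction shrinks differences less in bright genes. Whether this has a part in the wider gap was not tested. The second wild-type array was the lowest of the 4 in 15 members, 44.1% against 32.3% of all genes. The second knockout array was the highest in 13 members, 38.2% against 26.2% of all genes.

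**Figure D1:**
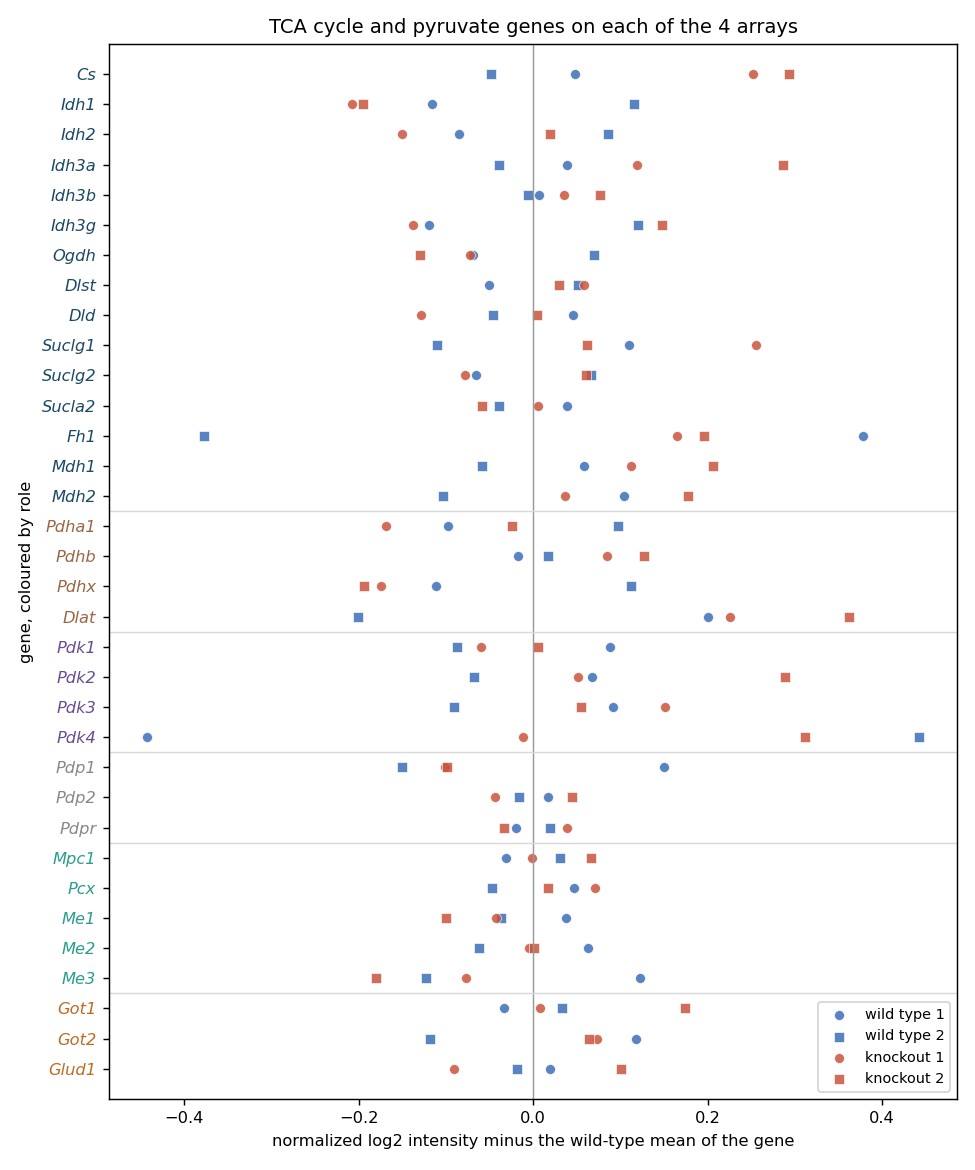
Normalized log2 intensity of 34 genes on each of the 4 arrays, minus the wild-type mean of the gene (horizontal axis), with genes in rows ordered by role. Blue points are wild-type and red points knockout arrays; both red points lie to the right of both blue ones for Cs, Idh3a, Idh3b, Mdh1, Pdhb and Dlat, and Fh1 and Pdk4 show blue points far apart.

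The cycle enzymes numbered 15, with 9 higher, 6 lower and a median log2 fold change of 0.044. Citrate synthase (Cs), which opens the cycle, had the smallest p of the list. Its spot medians in wild type were 4153 and 4293 units, against 4997 and 4813 units in the knockout. After normalization these stood at 12.05 and 11.95 in wild type against 12.25 and 12.29 in the knockout, so that both knockout arrays lay above both wild-type arrays. The difference was 0.27 ± 0.05, or 20.8% higher with a 95% interval of 9.99% to 32.6%, at an unadjusted limma p of 0.00417 and an adjusted p of 0.727. Without any 1 of the arrays it was 0.22 to 0.32, and in the authors' processed table, on a log2 scale with a floor, it was 0.37. It was -0.21 once the local background was subtracted, a setting described below.

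The promoter of Cs is shown because this gene stood furthest from the spread, together with those of Mdh1 and Dlat, 2 other genes without overlap of the groups and higher in the knockout. The choice was made by that outcome and in the higher direction only. The sequences are the 250 bases before the start site from RefSeq (GRCm38.p6), 5′ to 3′ on the strand of the gene. Capitals mark matches on either strand to the CCAAT box (CCAAT), bound by NF-Y, and the GC box (GGGCGG), bound by Sp1.
Cs, chr10:128337477-128337726, plus strand: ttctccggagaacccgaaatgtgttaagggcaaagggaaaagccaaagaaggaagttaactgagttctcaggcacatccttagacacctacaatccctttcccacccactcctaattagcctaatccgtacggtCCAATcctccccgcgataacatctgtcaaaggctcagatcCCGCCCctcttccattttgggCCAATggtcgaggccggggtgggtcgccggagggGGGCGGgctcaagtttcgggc
Mdh1, chr11:21571935-21572184, minus strand: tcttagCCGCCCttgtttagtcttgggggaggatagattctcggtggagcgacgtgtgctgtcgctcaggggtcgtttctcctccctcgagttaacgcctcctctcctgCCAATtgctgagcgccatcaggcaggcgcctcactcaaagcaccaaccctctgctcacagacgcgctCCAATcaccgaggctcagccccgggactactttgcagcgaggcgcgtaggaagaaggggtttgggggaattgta
Dlat, chr9:50659781-50660030, minus strand: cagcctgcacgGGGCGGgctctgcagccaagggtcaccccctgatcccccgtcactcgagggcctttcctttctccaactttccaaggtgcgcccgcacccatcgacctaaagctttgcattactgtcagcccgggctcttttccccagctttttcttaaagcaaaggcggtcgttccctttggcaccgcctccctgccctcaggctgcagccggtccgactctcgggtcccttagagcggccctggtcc

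Over windows of 300 bases, from 250 before to 50 after a start, 32 of the 35 listed genes matched 43 windows, some genes with several starts. A CCAAT box was found in 26 of the 43 windows, 60.5%, from 20 genes. It was in 37.4% of all 32851 windows and 38.2% of those of protein-coding genes. A GC box was found in 27 windows from 22 genes, 62.8%, against 35.7% and 46.2%. Nearby starts of a gene, as in Ogdh, give overlapping windows that share matches, so the windows are not independent. Both boxes were also found among the windows of Idh1, Ogdh, Pdhx and Me1, the members lower in the knockout without overlap. A link of the boxes to the direction of change was not tested. The motif of NRF1, a regulator of mitochondrial genes, given here by its name alone, was found in 2 windows, or 4.65%. The shares were 4.6% of all windows and 6.38% of those of protein-coding genes. The 2 windows were those of Sucla2 and of Dld, where the match lay 39 bases after the start. The motif of the estrogen-related receptors (TNAAGGTCA) was found in 0 of the 43 windows, against 1.28% of all windows and 1.03% of coding ones. The PPAR direct repeat, also given by its name alone, was found in 0 as well, against 0.0396% and 0.047%. A match is a description of the letters, and no match says only that these letters are not in this window.

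Isocitrate dehydrogenase is present as an NAD-dependent enzyme of the cycle, built of Idh3a, Idh3b and Idh3g, and as the NADP-dependent Idh1 of the cytosol and Idh2 of mitochondria. Idh3a, the catalytic subunit, read 12.06 and 11.98 in wild type against 12.14 and 12.31 in the knockout. The groups did not overlap, and the difference was 0.20 ± 0.07, 15.1% higher with an interval of 0.776% to 31.4%, at an unadjusted limma p of 0.0421. It was 0.12 without the second knockout array and 0.16 without the second wild-type array, where the unadjusted p was 0.163 and 0.128. Idh3b read 12.90 and 12.89 in wild type against 12.93 and 12.97 in the knockout, a difference of 0.06 ± 0.04. Idh3g read 12.18 and 12.42 in wild type against 12.16 and 12.45 in the knockout. In Idh3g the second array of each genotype was the higher one, and the genotypes differed by 0.01 ± 0.13. The 3 subunits of this enzyme were not tested against each other.

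Idh1 was the member with the lowest fold change. It read 8.08 and 8.31 in wild type, and the knockout arrays lay 0.01 apart at a mean of 7.99. The difference was -0.20 ± 0.09, with an interval of -25.8% to 1.9% and an unadjusted limma p of 0.0718. Both knockout arrays lay below both wild-type arrays, and the fold change was -0.09 without the second wild-type array and -0.32 without the first. Idh2 read 13.38 and 13.55 in wild type against 13.31 and 13.48 in the knockout, where the groups overlapped, at -0.07 ± 0.09.

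The 2-oxoglutarate dehydrogenase complex holds Ogdh, its decarboxylase, Dlst, its succinyltransferase core, and Dld, the dihydrolipoamide dehydrogenase it shares with pyruvate dehydrogenase. Ogdh read 10.72 and 10.86 in wild type against 10.72 and 10.66 in the knockout. The groups did not overlap, by a margin smaller than the rounding of these values, and the difference, -0.10 ± 0.06 in all, was -0.03 with the second array of wild type left out. Dlst and Dld were 0.04 ± 0.05 and -0.06 ± 0.07, with overlap in both.

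Succinyl-CoA ligase joins the shared subunit Suclg1 to the ATP-forming Sucla2 or the GTP-forming Suclg2. Suclg1 read 12.99 and 12.77 in wild type against 13.14 and 12.94 in the knockout, with overlap and a difference of 0.16 ± 0.10. Sucla2 was -0.03 ± 0.05 and Suclg2 -0.01 ± 0.07. Their intervals ran from -10.5% to 7.64% and from -13.2% to 13.9%.

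Fumarase (Fh1), which turns fumarate into malate, had the largest wild-type spread among the cycle enzymes and was chosen for description after its values were seen. It read 11.56 and 10.80 in wild type against 11.35 and 11.38 in the knockout. Both knockout arrays lay between the wild-type arrays, which were 1.69-fold apart. The fold change, 0.18 ± 0.26 with all arrays, became 0.56 without the first array of wild type and -0.20 without its second. With either of these arrays left out its unadjusted limma p was 3.06e-04 or 0.0164, in opposite directions, and the lone wild-type array was then assumed to vary like the knockout arrays. The second wild-type array, on which Fh1 was low, was also the one with the highest Myl4. Normalized Myl7, the other atrial marker measured, was 6.16 on it and 6.18 on the second knockout array. A link of Fh1 to these markers was not tested.

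Malate dehydrogenase serves both the cycle and the shuttle, as the mitochondrial Mdh2 and the cytosolic Mdh1. Mdh1 read 14.32 and 14.21 in wild type against 14.38 and 14.47 in the knockout. The groups did not overlap, and the difference of 0.16 ± 0.06 corresponds to 11.7% higher, with an interval of -0.438% to 25.3% and an unadjusted limma p of 0.0561. Without each array in turn it stayed between 0.10 and 0.22. It was 0.09 ± 0.06 with scaling to a common median and 0.29 ± 0.25 with the local background subtracted. The spot medians of Mdh1 overlapped before normalization, at 19383 and 22081 units in wild type against 21254 and 21154 units in the knockout. Mdh2 read 14.13 and 13.93 in wild type against 14.07 and 14.21 in the knockout, overlapping, with a difference of 0.11 ± 0.09. That of Mdh2 was 0.003 without the second wild-type array, -0.006 with scaling to a common median and -1.01 ± 0.60 with the local background subtracted.

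**Figure D2:**
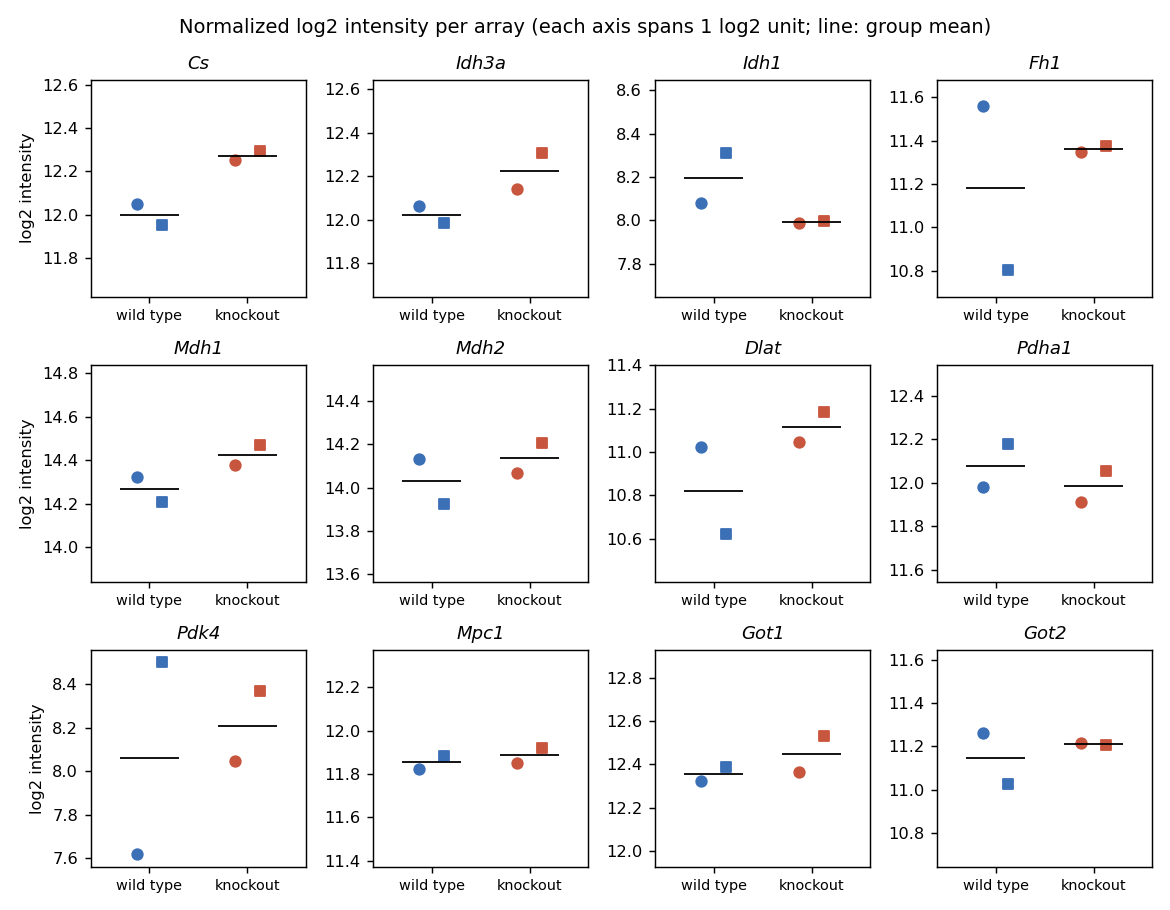
Normalized log2 intensity of 12 genes, with 1 point per array, circles for the first and squares for the second array of a genotype, and lines at the group means; every axis spans 1 log2 unit. Knockout points sit above wild-type points for Cs, Idh3a, Mdh1 and Dlat and below them for Idh1. Fh1 and Pdk4 have the widest gaps between the wild-type arrays. That gap exceeds the difference between genotypes for both, and also for Idh1, Dlat, Mdh2, Pdha1, Mpc1 and Got2.

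In the pyruvate dehydrogenase complex, Pdhb and Dlat had fold changes above 0 and Pdha1 and Pdhx below 0, and none passed the test. Pdha1 and Pdhb form the E1 enzyme that decarboxylates pyruvate. Pdha1 read 11.98 and 12.18 in wild type against 11.91 and 12.06 in the knockout, with overlap and a difference of -0.10 ± 0.09. Pdhb read 12.28 and 12.31 in wild type against 12.38 and 12.42 in the knockout, the gap within each group being 0.03 and 0.04. Its difference of 0.11 ± 0.04 was thus larger than either gap, at 7.63% with an interval of -0.211% to 16.1% and an unadjusted limma p of 0.0544. Pdhb was past an unadjusted p of 0.05 in 2 other settings, scaling to the 75th percentile and no filter on dim probes, and past the adjusted threshold in none. It was -0.25 ± 0.28 with the local background subtracted.

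Dlat, the lipoylated E2 acetyltransferase, had the largest fold change of the list. It read 11.02 and 10.62 in wild type against 11.05 and 11.18 in the knockout. The groups did not overlap, with the first wild-type array just below the first knockout array, and the difference, 0.29 ± 0.15 in all, was 0.09 with the second array of wild type left out and 0.49 with its first. Its unadjusted limma p was 0.108. Pdhx, which anchors Dld to that core, was 9.89 ± 0.16 (SD, n = 2) in wild type and 9.71 ± 0.01 in the knockout. Pdhx showed no overlap, at -0.18 ± 0.08, and at -0.07 with the second array of wild type left out. With the local background subtracted both signs turned, to -0.61 ± 0.39 for Dlat and 0.53 ± 0.19 for Pdhx. The fold changes of Dlat and Pdhx had opposite signs, and the difference between them was not tested.

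The kinases that inactivate pyruvate dehydrogenase, Pdk1 to Pdk4, had no member without overlap. Pdk4, the kinase induced by fasting and fatty acids, was the most variable member. It read 7.62 and 8.50 in wild type against 8.05 and 8.37 in the knockout, from spot medians of 222 and 422 units against 285 and 350 units. Both knockout arrays lay between the wild-type arrays, which differed 1.85-fold, and the second array of each genotype was higher. The difference was 0.15 ± 0.32, and its interval ran from -38.1% to 99.1%. It was 0.59 without the second wild-type array and -0.29 without the first. The first was the array low in erythroid markers, and a link of Pdk4 to them was not tested.

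Pdk2, the other main kinase of heart, read 7.19 and 7.05 in wild type against 7.17 and 7.41 in the knockout, with a difference of 0.17 ± 0.10. It rested on the second knockout array, without which it was 0.05. Pdk3 was 0.10 ± 0.08 and dim, at 121 to 126 units. Pdk1 was -0.03 ± 0.07 by its brighter probe and -0.11 by a dimmer one, which the annotation ties to another gene identifier. The phosphatases that reactivate the complex, Pdp1 and Pdp2, and the phosphatase regulatory subunit Pdpr were at -0.10 ± 0.11, 0.00 ± 0.05 and 0.00 ± 0.05. Pdp1 was at 8.11 and 7.81 in wild type and at 7.86 on both knockout arrays, and Pdp2 and Pdpr were dim, at 93 to 134 units.

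**Figure D3:**
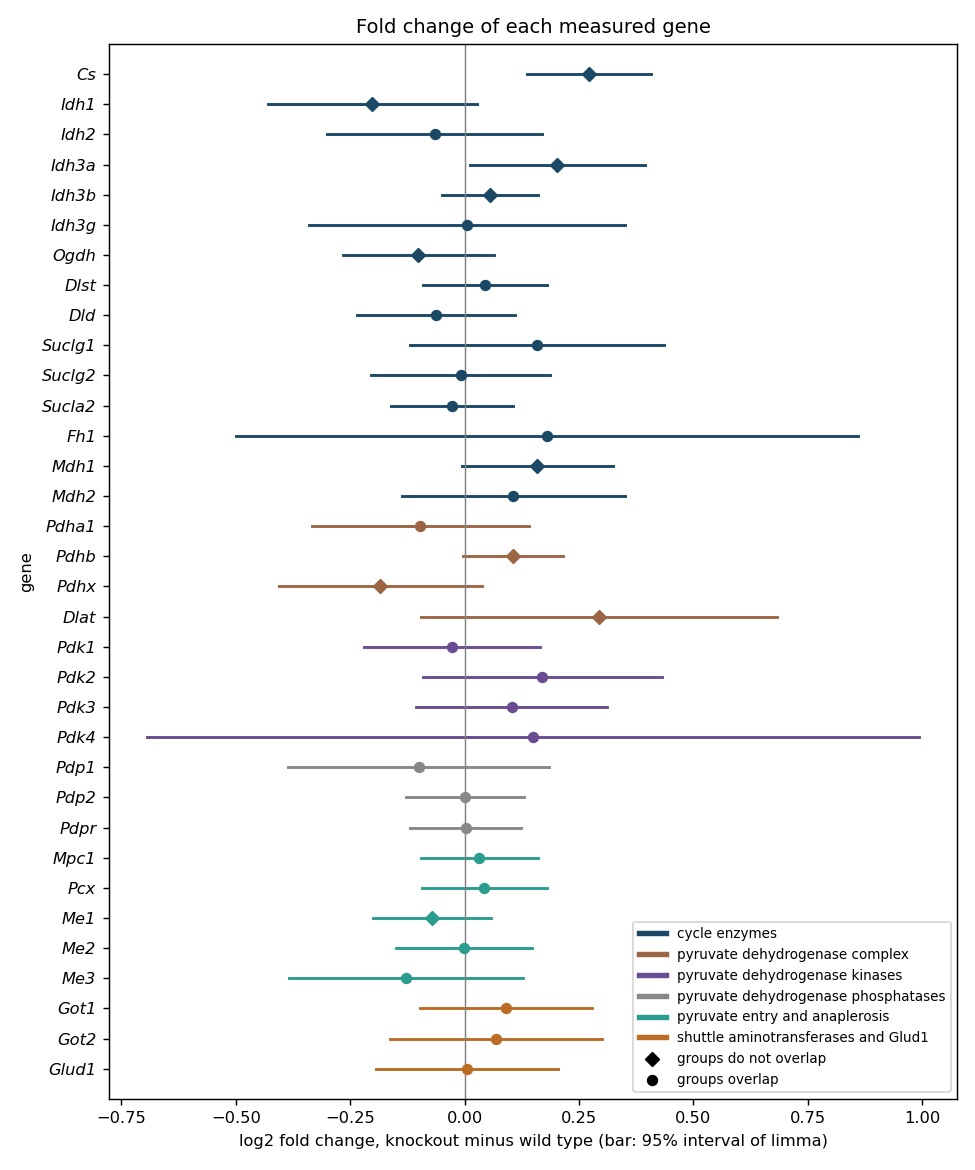
Log2 fold change, knockout minus wild type, of 34 genes (horizontal axis) with its 95% interval from limma, coloured by role, and diamonds where the arrays of the genotypes do not overlap. Only the intervals of Cs and Idh3a, before adjustment for the number of genes, lie wholly on one side of 0, and those of Pdk4 and Fh1 are the widest.

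Pyruvate entry and refilling of the cycle were followed in 5 genes, with 2 higher, 3 lower and a median of -0.0016. Mpc1, a subunit of the pyruvate carrier, read 11.82 and 11.88 in wild type against 11.85 and 11.92 in the knockout. All 4 arrays were within a narrow range, and the difference of 0.03 ± 0.05 had an interval of -6.38% to 11.7%. A second, dim probe of Mpc1 gave -0.02. Pcx, the carboxylase that makes oxaloacetate from pyruvate, was 0.04 ± 0.05 at 133 to 140 units, where differences are shrunk. The malic enzymes, which link malate and pyruvate, were lower in their cytosolic form Me1, at -0.07 ± 0.05 without overlap, and in the mitochondrial Me3, at -0.13 ± 0.10. Me3 read 8.98 and 8.73 in wild type against 8.78 and 8.67 in the knockout, with overlap, and its difference shrank to -0.01 without the first wild-type array. Me2 was dim, at 103 to 109 units, and at 0.00 ± 0.06.

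The aminotransferases of the malate-aspartate shuttle are the cytosolic Got1 and the mitochondrial Got2, which work with Mdh1 and Mdh2. Got1 read 12.32 and 12.39 in wild type against 12.36 and 12.53 in the knockout, at 0.09 ± 0.07. The groups overlapped, and the value was 0.007 without the second knockout array. Got2 read 11.26 and 11.03 in wild type against 11.22 and 11.21 in the knockout, at 0.07 ± 0.09. Both knockout arrays of Got2 lay between the wild-type arrays, and the sign turned without the second wild-type array, to -0.05. Glud1, glutamate dehydrogenase, which supplies 2-oxoglutarate, was 0.01 ± 0.07. With the local background subtracted, a setting described below, Glud1 was 1.13 ± 0.24. Among these 5 genes, Mdh1 alone had groups without overlap, and in the pairs Idh1 and Idh2, Mdh1 and Mdh2, and Got1 and Got2 the cytosolic and mitochondrial forms had fold changes of the same sign under the main processing.

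**Figure D4:**
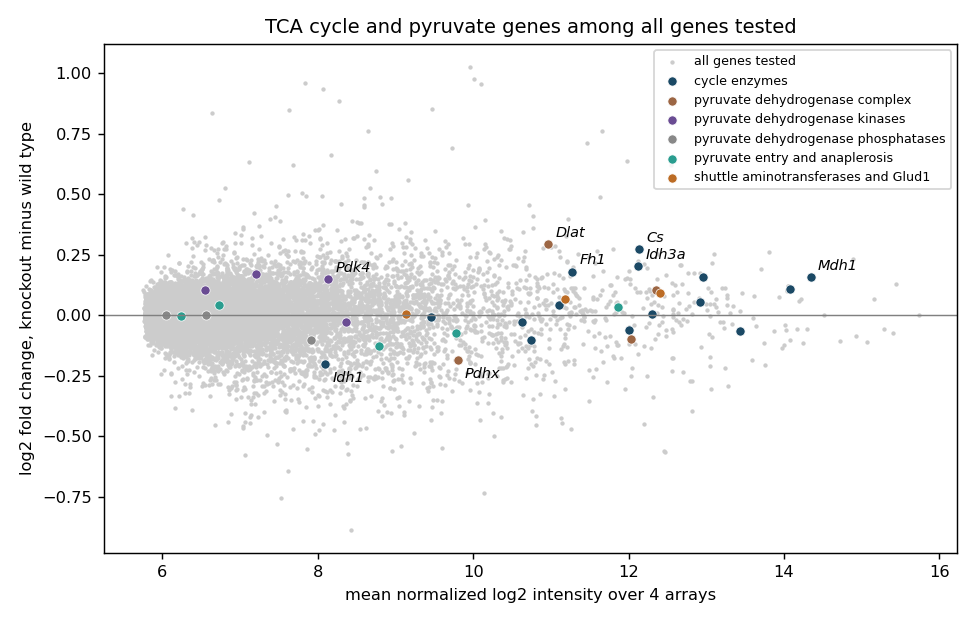
Log2 fold change, knockout minus wild type, against the mean normalized log2 intensity of each gene over the 4 arrays; grey points are the 15955 genes tested and coloured points the 34 members by role. The members spread from 6.05 to 14.35 in intensity and lie within the cloud of all genes.

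Neighbouring genes of the pathway were listed apart, with 36 entries of which 33 were measured. Of these 19 were higher and 14 lower, with a median of 0.016, and 0 passed the test over all genes (limma). At an unadjusted p under 0.05 there were 3 higher and 2 lower, where 6.74% of all genes were. Lias, which makes the lipoate carried by Dlat and Dlst, read 8.91 and 8.88 in wild type against 9.08 and 9.15 in the knockout, 0.22 ± 0.05 with no overlap. Gpt2, the mitochondrial alanine aminotransferase that exchanges alanine and pyruvate, read 6.36 and 6.41 in wild type against 6.57 and 6.64 in the knockout. Its difference was also 0.22 ± 0.05, and its probe was dim, at 108 to 127 units, where differences are shrunk. The monocarboxylate carrier Slc16a1 was 0.18 ± 0.06. Lower were Ldha, the lactate dehydrogenase subunit favoured in glycolytic tissue, at -0.25 ± 0.06, and Acss1, the mitochondrial acetyl-CoA synthetase, at -0.20 ± 0.06. All 5 had an adjusted p of 0.727. The alternative settings, among them those without 1 array and with the local background subtracted, were read for members and not for these neighbouring genes.

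Succinate dehydrogenase, the step of the cycle left to the respiratory chain, had Sdha and Sdhb at 0.03 ± 0.07 and 0.03 ± 0.06. Its membrane subunits Sdhc and Sdhd were at -0.16 ± 0.07 and -0.13 ± 0.07, both without overlap and with unadjusted limma p-values of 0.0657 and 0.119. Of the carriers of the shuttle, the oxoglutarate carrier Slc25a11 was at -0.07 ± 0.07 and the aspartate-glutamate carriers Slc25a12 and Slc25a13 at 0.09 ± 0.15 and 0.21 ± 0.09. Ldhb, the lactate dehydrogenase subunit of heart, was at -0.04 ± 0.07.

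The number of members at an unadjusted p under 0.05 was also counted without each array. Without the first wild-type array there were 8 higher and 3 lower, with 14.7% of all genes past the same mark, and without the second 2 higher and 3 lower, with 7.03%. Without the first knockout array there were 3 higher and 0 lower, with 5.57% of all genes, and without the second 1 higher, Cs, and 0 lower, with 2.78%. Cs was the only member past that mark in all 4 of these fits, and the sign was the same in all 4 for 16 of 34 members. No member passed the adjusted threshold in any of them.

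The local background, the light measured around a spot, was 7.14% to 104% of the spot median over members and arrays. For Cs it was 45.5% and 36.9% on the wild-type arrays and 66.9% and 47.5% on the knockout arrays, and for Fh1 it was 104% on the first knockout array. Subtracting it turned the sign of 17 members, Cs and Idh3a among them at -0.21 and -0.16, and the median became -0.123. The other 15 were Idh2, Idh3g, Suclg1, Suclg2, Fh1, Mdh2, Pdhb, Pdhx, Dlat, Pdk2, Pdk3, Pdp1, Mpc1, Pcx and Got2. The standard error of Cs was then 0.37, against 0.05 without subtraction.

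**Figure D5:**
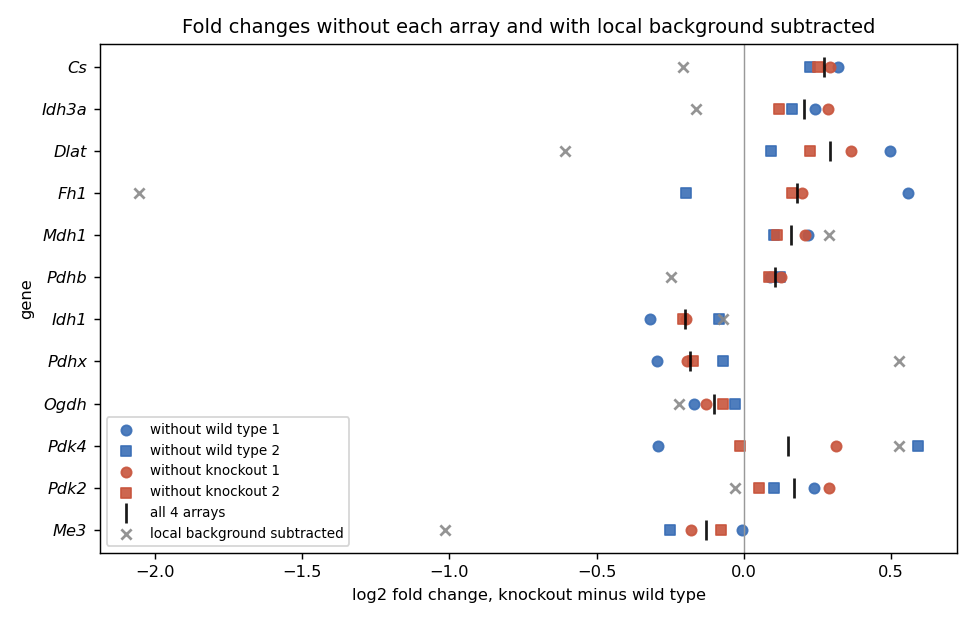
Log2 fold change, knockout minus wild type, of 12 genes with all 4 arrays (black bars), without each array (blue and red points) and with the local background subtracted (grey crosses). Points for Cs, Mdh1 and Pdhb stay close together when an array is left out, those of Fh1 and Pdk4 lie on both sides of 0, and the cross of Cs lies at -0.21.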

How the data were processed

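Cy5-labelled amplified RNA of 4 samples was read on Toray oligonucleotide arrays, per the labels' protocols. The authors deposited scanner files with the median intensity of each of 27456 spots and of its local background, per the file headers linear in intensity, and a table of processed intensity that follows the spot medians in a straight line on each array, with a median of 25. The sources used here do not give how the scanner gains were combined.

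Spot medians were corrected with normexp (offset 50, local background not subtracted, since it followed the spot signal with a correlation of 0.931 to 0.967) in limma 3.58.1 under R 4.3.3, averaged per probe, turned into log2 and quantile normalized. A probe was kept when above the 95th percentile of 480 blank and negative control spots on at least 2 arrays. The brightest kept probe represented a gene. Probe symbols came from the platform annotation. Groups were compared with lmFit and eBayes (2 residual and 2.49 prior degrees of freedom), two-sided, adjusted by Benjamini-Hochberg over 15955 genes, without covariates. The fit was tested on simulated data. The number of arrays limits the precision.

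The members and lists were chosen with earlier results of these data known. Values per array were given for members with an unadjusted p under 0.05, or without overlap and with a fold change of 0.2 or more in size on the log2 scale, and for 11 enzymes and carriers named by role, of which Mpc2 had no matching probe here; those of further members were chosen after the values were seen. Deviations of same-numbered arrays from their group means correlated at 0.0967 across genes, and the numbers were not treated as pairs. Alternatives changed the background correction, scaling, filter, source of values, probe choice, variance model and replicate term, or left out each array.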

Additional observations from a re-analysis of the deposited data

How the results depend on the processing

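The number of arrays sets the limit of all values. Among all genes tested, 0 passed the adjusted threshold with all arrays in each setting, and 0 to 1 without 1 array, that 1 gene without the second wild-type array; no member passed in any setting. Of the 34 members, 7 kept their sign in all 15 alternatives: Idh1, Idh3b, Ogdh, Mdh1, Me1, Me3 and Got1. Not all of these could turn a sign. The changed filters, the trend and robust prior and the replicate block left the fold change of every member as it was. The mean of kept probes could change only members with several probes, none of them among these 7. The members at an unadjusted p under 0.05, 2 higher and 0 lower where 6.74% of all genes passed that mark, were 1 higher with a normexp offset of 16 (6.58% of all genes) and 0 with an offset of 0 (5.58%). With the local background subtracted they were 1 higher, Glud1, and 4 lower, Dld, Suclg1, Pdk3 and Me3 (8.09% of all genes). The median of the list was then -0.123, and Cs and Idh3a reversed to -0.21 and -0.16. Members past that mark were 4 higher with 75th percentile scaling (7.1%) and 1 with a trend and robust prior (6.47%). In the authors' table they were 0 (4.26%), and the median was 0.0894. Without 1 array they ranged from 1 to 8 higher and from 0 to 3 lower, with 2.78% to 14.7% of all genes, and the median from 0.0018 to 0.0575. With the replicate number as a block, where 7.2% of all genes passed, 1 was lower, Idh1, and 2 were higher, Cs and Suclg1, in place of Cs and Idh3a, whose p was 0.0528; same-numbered arrays are not shown to be pairs. The other settings kept these counts within 1.5-fold. The cause of these changes was not tested.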
